A study of Mus musculus with 6 samples.

Results

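Long promoter loops, contacts between a baited promoter fragment and an unbaited fragment 1 to 10 Mb away on the same chromosome, were followed in promoter-capture Micro-C of mouse embryonic stem cells. They were taken from the authors' 6 loop lists as entries whose ends share a chromosome, whose other end is in none of the lists a bait, and whose midpoints lie from 1 Mb to under 10 Mb apart. One bait on chromosome 2 was left out. There were 5216 such entries among 107701 in the 6 lists, and among 80426 that joined a bait to an unbaited end of the same chromosome. Counted by identical ends they made 3923 loops, from 2203 of 19070 baits to 2569 other ends. The same distance range held 1380 of 33243 rows in the authors' deposited table for Brg1KD against Control and 1806 of 34774 in the one for Ino80KD.

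The cells were E14TG2a (E14), a male line of wild type genotype grown on gelatin in serum with leukemia inhibitory factor, and all were harvested 48 h after lipofection of esiRNA, a pool of short RNAs made by cutting a long double-stranded RNA. Control cells received esiRNA against EGFP, Brg1KD cells esiRNA against Smarca4 and Ino80KD cells esiRNA against Ino80, with 2 libraries in each group. Replicate 1 of every group was labelled batch 1, Control replicate 2 batch 2, and replicate 2 of both depletions batch 3, so the second replicates differ in batch as well as in treatment wherever a depletion is set against Control. The labels do not say whether replicates were separate cultures, so p-values measure only the spread between these libraries, which may be technical. RNA was not measured, so neither the extent of the knockdowns nor the identity of the cells was checked here. Smarca4 had 1 bait, with no long loop and 15 entries under 1 Mb in the 6 lists, and no bait was named for Ino80.

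Brg1 is the ATPase of esBAF, the BAF complex of embryonic stem cells, which slides and evicts nucleosomes, and Ino80 is the ATPase of INO80, which spaces nucleosomes and exchanges histone variants. Most contacts of a promoter lie within its own topological domain. Contacts that cross many domains are rarer and join sites that share a chromatin state: genes held silent by Polycomb gather with one another in embryonic stem cells, and clusters of replication-dependent histone genes meet at the histone locus body, where histone pre-mRNA is made and processed.

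The 5 promoters below, on 4 baits named in the results, are shown as examples of developmental, histone and olfactory receptor genes. Each runs from 250 bases before to 50 bases after the start site in RefSeq (GRCm38.p6), 5′ to 3′ on the plus strand, which is the strand of all 5 genes. Capitals mark CG dinucleotides in Lhx2 (chr2:38339031-38339330), Nkx2-3 (chr19:43612075-43612374) and Olfr418 (chr1:173269897-173270196), and CCAAT or its reverse complement ATTGG in H2ac10 (chr13:23533625-23533924) and H3c8 (chr13:23535168-23535467), which share 1 bait.
Lhx2: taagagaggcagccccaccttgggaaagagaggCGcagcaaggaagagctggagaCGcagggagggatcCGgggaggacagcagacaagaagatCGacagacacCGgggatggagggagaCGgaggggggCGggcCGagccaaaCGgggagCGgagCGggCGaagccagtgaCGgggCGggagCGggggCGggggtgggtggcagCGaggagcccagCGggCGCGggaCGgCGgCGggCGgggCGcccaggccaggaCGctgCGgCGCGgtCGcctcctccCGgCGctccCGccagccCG
Nkx2-3: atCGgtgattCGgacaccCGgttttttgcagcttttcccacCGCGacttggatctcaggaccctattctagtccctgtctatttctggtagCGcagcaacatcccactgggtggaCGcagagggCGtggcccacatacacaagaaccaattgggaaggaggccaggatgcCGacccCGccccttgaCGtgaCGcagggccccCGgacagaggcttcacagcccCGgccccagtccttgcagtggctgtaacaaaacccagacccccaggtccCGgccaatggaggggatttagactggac
H2ac10: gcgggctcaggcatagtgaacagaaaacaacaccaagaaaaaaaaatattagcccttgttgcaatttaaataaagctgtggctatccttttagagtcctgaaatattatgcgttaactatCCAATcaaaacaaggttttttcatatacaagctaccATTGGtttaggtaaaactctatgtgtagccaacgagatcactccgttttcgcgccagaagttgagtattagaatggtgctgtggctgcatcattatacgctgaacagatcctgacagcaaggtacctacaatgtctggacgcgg
H3c8: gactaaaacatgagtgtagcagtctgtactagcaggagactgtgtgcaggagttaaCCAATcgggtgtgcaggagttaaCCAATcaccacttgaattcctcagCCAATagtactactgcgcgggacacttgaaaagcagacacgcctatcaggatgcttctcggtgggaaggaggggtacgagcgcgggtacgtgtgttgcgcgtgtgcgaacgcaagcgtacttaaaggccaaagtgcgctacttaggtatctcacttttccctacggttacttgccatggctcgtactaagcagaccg
Olfr418: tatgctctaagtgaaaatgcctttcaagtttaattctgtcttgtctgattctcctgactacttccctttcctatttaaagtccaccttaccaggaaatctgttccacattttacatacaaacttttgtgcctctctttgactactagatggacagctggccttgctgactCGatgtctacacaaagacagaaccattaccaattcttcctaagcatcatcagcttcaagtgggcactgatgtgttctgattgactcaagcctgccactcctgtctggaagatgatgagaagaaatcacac
The Lhx2 promoter holds 34 CG and that of Nkx2-3 holds 15, and both genes encode homeobox transcription factors. The promoter of Olfr418, an odorant receptor gene, holds 1. CCAAT, searched on both strands, occurs 2 times in H2ac10, which encodes a histone H2A, and 3 times in H3c8, which encodes a histone H3. It also occurs, unmarked, at least 2 times in Nkx2-3 and 1 time in Olfr418. The histone promoters hold unmarked CG as well, 9 in H2ac10 and 18 in H3c8, the latter more than Nkx2-3. Among all 27025 RefSeq promoters, 37.9% hold CCAAT and the median number of CG is 7.

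In these lists the Brg1KD libraries held fewer long loops than any other library. The Control lists held 1014 and 1078, the Brg1KD lists 417 and 747, and the Ino80KD lists 971 and 989. Both Brg1KD values were the lowest of the 6, the Ino80KD values lay just under the Control values, and no groups overlapped. The mean was 1046 ± 45.3 for Control, 582 ± 233 for Brg1KD and 980 ± 12.7 for Ino80KD (SD, n = 2 libraries each). The ratio of Brg1KD to Control was 0.556, and it was 0.411 within batch 1 and 0.693 between the second replicates. The ratio of Ino80KD to Control was 0.937, and its log2 value turned to 0.0561 when only scores of at least 7 were counted. The ratio of Ino80KD to Brg1KD was 1.68, with 2.33 within batch 1 and 1.32 within batch 3. The exact two-sided permutation test gave p = 0.333 for each of the 3 comparisons (adjusted p = 0.429 over 9 tests), and with 2 libraries against 2 it cannot go lower.

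Long loops were fewer in Brg1KD also in proportion to the rest of the list. Per 1000 intrachromosomal loops to unbaited ends, long loops numbered 69.2 and 77.6 in Control, 35.0 and 59.6 in Brg1KD, and 69.0 and 74.1 in Ino80KD. Their 95% Wilson intervals, which cover counting error only, are drawn in the plot of both measures. Again both Brg1KD libraries were lowest, while Control and Ino80KD interleaved (exact permutation p = 0.333, 0.667 and 0.333, adjusted 0.429, 0.667 and 0.429, for Brg1KD against Control, Ino80KD against Control and Ino80KD against Brg1KD). Brg1KD replicate 1 lay furthest from the others and without it the ratio of Brg1KD to Control was 0.813 per 1000, against 0.645 with it, and 0.714 in the number of long loops. The same library listed the most loops between chromosomes, 3809 or 23.7% of its list, against 2405 to 2942 or 14.6% to 17.0% in the other 5, and the part of this in the long loops was not tested. The sequencing depth of the libraries is unknown.

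**Figure D1:**
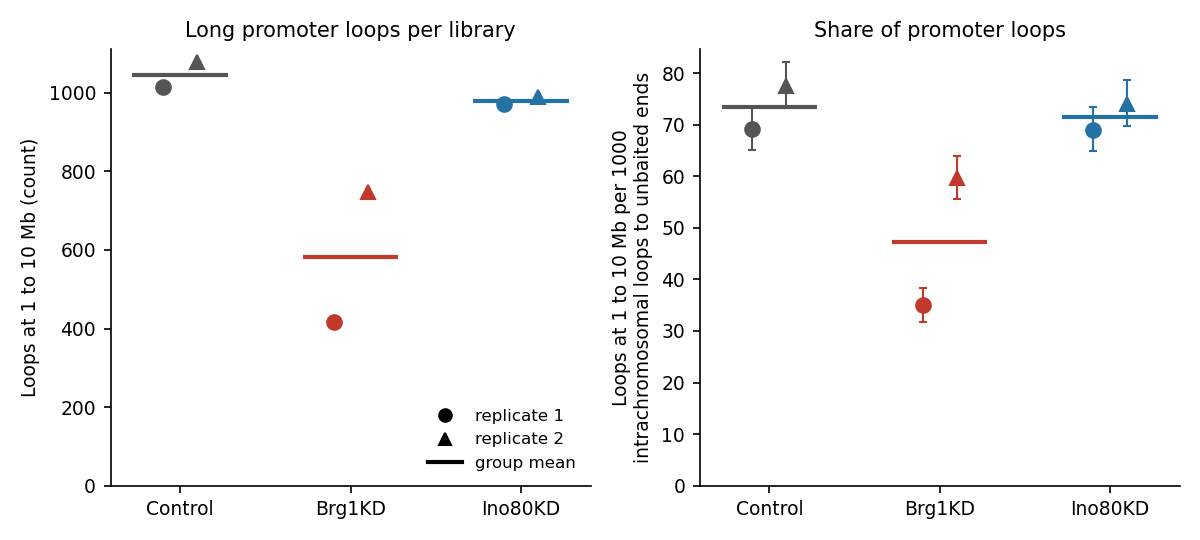
Long loops per library as a count (left) and per 1000 intrachromosomal loops to unbaited ends (right), both axes from 0. Points are libraries, horizontal bars group means, and error bars 95% Wilson intervals. The Brg1KD libraries, at 417 and 747 loops, lie below all others, which hold 971 to 1078.

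The low ratio of Brg1KD to Control was similar throughout the range and nearer 1 in each class under 1 Mb, taken whole. Between 50 and 250 kb the ratio of Brg1KD to Control was 0.955, and between 250 kb and 1 Mb it was 0.833. At 1 to 2 Mb the lists held 791 and 787 loops in Control, 319 and 566 in Brg1KD, and 746 and 732 in Ino80KD, and the ratio of Brg1KD to Control was 0.561. At 2 to 5 Mb they held 182 and 238, 86 and 144, and 187 and 208, a ratio of 0.548. At 5 to 10 Mb they held 41 and 53, 12 and 37, and 38 and 49, a ratio of 0.521. In each of these 3 classes the higher Brg1KD value was under the lower Control value. Beyond 10 Mb the ratio was 0.608. Loops of 1 to 2 Mb made up 75.5% ± 3.54 of long loops in Control, 76.1% ± 0.516 in Brg1KD and 75.4% ± 1.99 in Ino80KD (SD, n = 2), values that overlap.

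**Figure D2:**
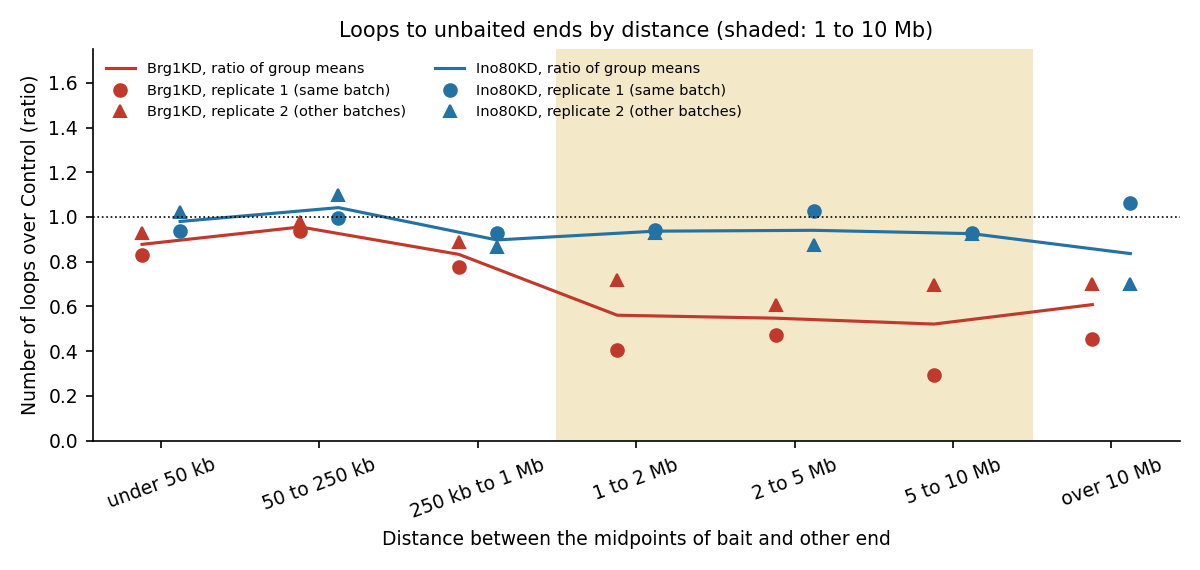
Number of loops to unbaited ends over Control by distance class, as a ratio. Lines join ratios of group means, circles are replicate 1 within batch 1 and triangles replicate 2 across batches. Brg1KD lies at 0.521 to 0.561 in the shaded classes, against 0.833 to 0.955 in the 3 classes under 1 Mb.

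The median distance of long loops was 1.43 and 1.42 Mb in Control, 1.40 and 1.42 Mb in Brg1KD, and 1.47 and 1.496 Mb in Ino80KD. Both Ino80KD medians lay above the other 4, by 0.0626 Mb over Control on average, which is given as a description since the rule itself used the distance. Just inside the lower limit, loops at 1.0 to 1.1 Mb numbered 172 and 185, 76 and 137, and 164 and 155. Just outside it, those at 0.9 to 1.0 Mb numbered 180 and 219, 84 and 155, and 178 and 160. Both Brg1KD libraries were lowest on either side of the limit, so their low counts did not begin at 1 Mb. The authors' interaction score, listed from 5 up, had a median of 6.16 to 6.32 for long loops in every library. Loops with a score of at least 10 numbered 138 and 138 in Control, 46 and 81 in Brg1KD, and 144 and 138 in Ino80KD. The Brg1KD libraries were lowest among the high scores too.

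Few long loops recurred. Of 3923, 3236 (82.5%) were in 1 list, 687 (17.5%) in 2 or more and 41 in all 6, where 65.9% of loops under 1 Mb were in 1 list and 3.40% in all 6. The 2 Control lists shared 206 long loops, and of these 76 and 107 were in the Brg1KD lists and 113 and 119 in the Ino80KD lists. These are 36.9% and 51.9% for Brg1KD and 54.9% and 57.8% for Ino80KD. Of the 4649 loops under 1 Mb in both Control lists, the shares were 57.3% and 59.3% for Brg1KD and 66.7% and 62.1% for Ino80KD. These were higher than for the long loops in each of the 4 libraries. Among the 50 long loops with a score of at least 10 in both Control lists, Brg1KD listed 68.0% and 82.0%. Ino80KD listed 86.0% and 80.0% of these 50, so the depletions overlapped there. Of the long loops in Control and Brg1KD lists, 77 were in both Control and neither Brg1KD library (2.88%, against 3.56% of loops at all distances) and 15 the reverse (0.562%, against 1.99%). Between Control and Ino80KD these counts were 60 (1.86%, against 2.84%) and 65 (2.02%, against 2.48%). Between the depletions 99 were in both Ino80KD and neither Brg1KD library (3.89%, against 3.7%) and 12 the reverse (0.471%, against 2.23%). The counts were thus uneven for Brg1KD and nearly even for Ino80KD. The whole Brg1KD lists were also shorter, with 16063 and 15562 entries against 18042 and 17336 in Control, and the part of that in these counts was not tested.

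Long loops were gathered in few places. The 20 fullest pairs of 1-Mb blocks, of 1129 with any long loop, held 1355 of 3923 loops (34.5%), and 1561 of 2203 baits had a single one. Chromosome 7 held 809, chromosome 4 held 488 and chromosome 13 held 408. The number in Brg1KD over Control was 0.575 in the fullest blocks and 0.544 elsewhere. On 12 of 20 chromosomes the Brg1KD libraries were both lower than either Control library, and on 0 both higher. For loops under 1 Mb that count was 16 of 20 (80.0%), a share above that of the long loops.

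The fullest pair of blocks joined the outer parts of the large histone cluster, at 21 and 23 Mb of chromosome 13. It held 203 loops, with 77 and 61 in Control, 26 and 43 in Brg1KD, and 92 and 89 in Ino80KD. The Ino80KD libraries were highest and the Brg1KD libraries lowest. The bait with most long loops, 23, was that of H2ac10 and H3c8 (chr13:23532786-23536173), which listed 13 and 9 in Control, 7 and 9 in Brg1KD, and 14 and 17 in Ino80KD. Second was the bait of H2ac12 and H2bc12, an H2A and H2B pair (chr13:22034750-22036688), with 9 and 2, 5 and 3, and 9 and 12. Their other ends lay near other histone genes and near Zfp184, Abt1 and the butyrophilin genes Btn1a1 and Btn2a2, which stand between the histone genes. The window at chr13:23400001-23420000, at Abt1, was reached from 18 baits and the one at chr13:21920001-21940000, near Zfp184, from 15.

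All 36 baits of replication-dependent histone genes together gave 86 and 56 long loops in Control, 29 and 38 in Brg1KD, and 88 and 92 in Ino80KD, and 26 of the 36 (72.2%) had at least 1. Both Brg1KD libraries were below, and both Ino80KD libraries above, all Control values. Loops of the same baits under 1 Mb numbered 39 and 32, 26 and 28, and 44 and 49. To unbaited ends, histone baits thus listed more long loops than shorter ones in 6 of 6 libraries. Loops from bait to bait, as between neighbouring histone genes, are in neither count. Per 1000 long loops of the library they made up 84.8 and 51.9 in Control, 69.5 and 50.9 in Brg1KD, and 90.6 and 93.0 in Ino80KD, so on this scale Brg1KD overlapped Control and Ino80KD lay above it (exact permutation p = 0.667 and 0.333, adjusted 1 and 0.889 over 24 tests). Without Control replicate 1 the log2 ratio of Brg1KD to Control on this scale turned to 0.21. Of 44 histone promoters on baits with a long loop, 61.4% hold TATAAA and 81.8% CCAAT, on either strand, against 14.2% and 37.9% of all RefSeq promoters. Of 15 histone promoters on baits with no long loop, 46.7% hold TATAAA and 100% CCAAT, so CCAAT was no rarer there.

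The baits of developmental regulators were the 1 list of the 8 tested in which no groups overlapped per 1000 long loops of the library. The list takes homeobox, T-box, GATA, Sox, forkhead and proneural genes by symbol, many of which pattern the embryo and are mostly silent in stem cells. Their 199 baits listed 25 and 17 long loops in Control, 3 and 9 in Brg1KD, and 36 and 37 in Ino80KD. Brg1KD was lowest and Ino80KD highest. Per 1000 long loops these are 24.7 and 15.8, 7.19 and 12.05, and 37.1 and 37.4, and the groups stayed apart on this scale. The ratio of Brg1KD to Control was 0.476 and that of Ino80KD to Control 1.84 (exact permutation p = 0.333 each, adjusted p = 0.889). Among the 8 lists tested, 2 (25.0%) had Brg1KD wholly below Control and 2 (25.0%) had Ino80KD wholly above Control. Developmental regulators and nuclear oxidative phosphorylation genes were the first pair, and developmental regulators and histones the second. Under 1 Mb the same developmental baits listed 168 and 155, 120 and 105, and 177 and 164, a Brg1KD ratio of 0.697 against 0.286 for the long loops.

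Gata3, a GATA factor of T cell and trophoblast development, had the most long loops of the list with 8, in Control 6 and 2, in Brg1KD 1 and 2, and in Ino80KD 2 and 3, none to an end with a gene. Lhx1 and Nkx2-3 had 5 each. Lhx1, a LIM homeobox factor of head and kidney development, listed 0 and 1 in Control, 0 and 0 in Brg1KD, and 2 and 4 in Ino80KD. Nkx2-3 listed 2 and 2 in Control, 0 and 0 in Brg1KD, and 5 and 3 in Ino80KD. Neither gene had a long loop in a Brg1KD list. The symbol rule for T-box genes also took in Tbxa2r, a receptor gene that is no T-box factor. The rule for forkhead genes took symbols from Foxa to Foxs, with groups such as Foxj that the broader list below left out.

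**Figure D3:**
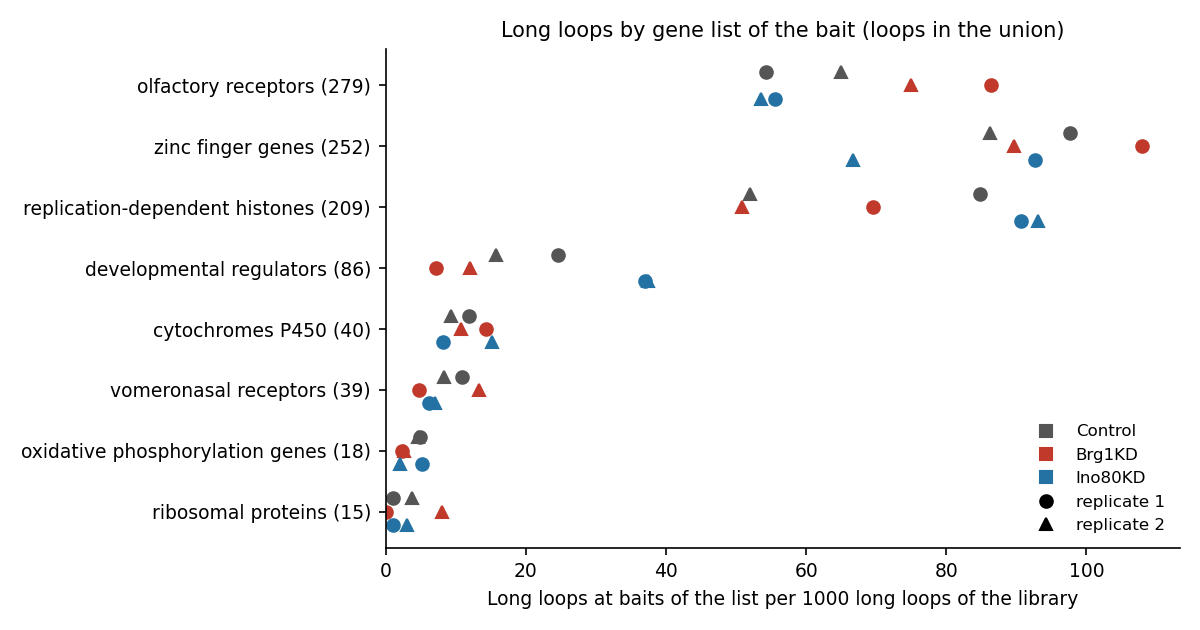
Long loops at baits of each gene list per 1000 long loops of the library (horizontal axis from 0), with the loops of each list in the union in parentheses. Each point is a library. Developmental regulators lie at 7.19 and 12.05 in Brg1KD, 15.8 and 24.7 in Control and 37.1 and 37.4 in Ino80KD.

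Some long loops of developmental genes ended at another developmental gene, as did loops of other families. Of the 86 loops of developmental regulators, 11 had a gene of the list at both ends. This held for 82 of 279 loops of olfactory receptors, 56 of 252 of zinc finger genes, 35 of 209 of histones and 13 of 40 of cytochromes P450. It held for 4 of 39 loops of vomeronasal receptors, 0 of 15 of ribosomal proteins and 0 of 18 of oxidative phosphorylation genes. A broader list of such genes, written after the loops had been seen and therefore given with no test, was near both ends of 64 loops, which formed 23 gene pairs 1.01 to 7.58 Mb apart. These loops numbered 19 and 7 in Control, 1 and 1 in Brg1KD, and 40 and 34 in Ino80KD. All but 2 of the 23 pairs were missing from the Brg1KD lists, 12 pairs were in a Control list and 13 were in both Ino80KD lists. A pair entered by being in any list, and 11 pairs were in Ino80KD lists only. These counts are thus partly fixed by how the pairs were chosen. Of all long loops, at any bait, 82.5% were in 1 list alone. The Control libraries differed from each other by more than the Ino80KD libraries did. Long loops with a developmental gene at the bait only numbered 21 and 16, 4 and 10, and 17 and 15, and there Ino80KD overlapped Control. At 250 kb to 1 Mb loops with developmental genes near both ends numbered 54 and 19, 16 and 7, and 59 and 60.

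Nkx2-3 and Pax2, homeobox and paired-box genes of spleen and of kidney and eye development, lie about 1.14 Mb apart on chromosome 19. Their loops numbered 3 and 2 in Control, 0 and 0 in Brg1KD, and 3 and 3 in Ino80KD. Their highest scores were 7.22 and 9.21 in Control and 16.45 and 11.04 in Ino80KD. They ran from the Nkx2-3 bait, whose promoter is printed above, and in the other direction from 2 Pax2 baits, one of them at chr19:44754925-44757784. Nkx2-3 also met the region of Tlx1, another homeobox gene of spleen development, in both Ino80KD lists with scores of 7.81 and 5.29 and in no other list.

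Lhx2 and Lmx1b, LIM homeobox genes of forebrain and limb development, are 4.71 Mb apart on chromosome 2. Their loops numbered 1 and 0 in Control, 0 and 0 in Brg1KD, and 2 and 5 in Ino80KD, and the highest score was 19.38, in Ino80KD replicate 2. Mnx1, a motor neuron homeobox gene, and Shh, which encodes a secreted morphogen and lies about 1.01 Mb away on chromosome 5, gave 2 and 0, 1 and 0, and 6 and 3 loops. The loop from the Mnx1 bait (chr5:29477731-29479590) to Shh (chr5:28460001-28465253) had the highest mean score of all long loops listed in both Ino80KD libraries alone, with 16.92 and 14.89. Of the loops listed in both Ino80KD libraries alone, the next by mean score ran from Btn2a2 to the Zfp184 region, with 18.22 and 13.53, and from the bait of H2bc23, H2ac23 and H4c17 to H2bc4, with 11.37 and 15.1. Those of Control alone were led by Gm16372, with 19.0 and 5.33, and those of Brg1KD alone by Zfp988, with 7.26 and 11.57. The sets of loops listed in both libraries of 1 group and none of the other 4 numbered 41 (1.05%) for Control, 5 (0.127%) for Brg1KD and 53 (1.35%) for Ino80KD, against 1.27%, 0.804% and 1.16% at all distances.

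**Figure D4:**
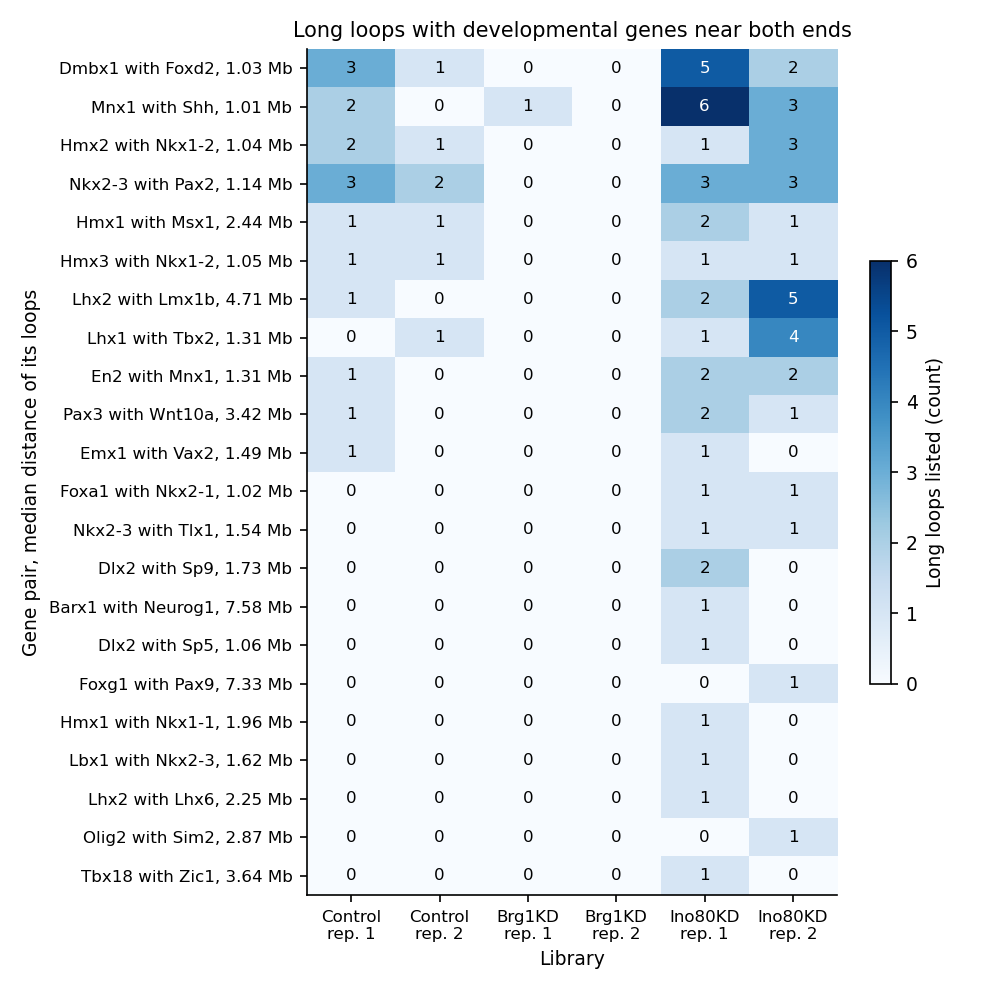
Number of long loops in each library (columns) for 22 of the 23 pairs of developmental genes (rows, with the median distance of the pair's loops). Shading follows the count, from 0 to 6. Of these pairs, the Brg1KD columns hold 1 and 0, the Control columns 16 and 7, and the Ino80KD columns 36 and 29 loops.

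The other gene families are given by their counts and, where tested, their share. Zinc finger genes, many of which encode KRAB repressors of transposable elements, listed 99 and 93 long loops in Control, 45 and 67 in Brg1KD, and 90 and 66 in Ino80KD. Per 1000 long loops these were 97.6 and 86.3, 108 and 89.7, and 92.7 and 66.7, with Brg1KD overlapping Control. Olfactory receptors, 1016 baits of odorant receptor genes, listed 55 and 70, 36 and 56, and 54 and 53. Per 1000 long loops Brg1KD, at 86.3 and 74.97, lay above Control, at 54.2 and 64.9 (1 of 8 lists, 12.5%, exact permutation p = 0.333, adjusted 0.889). Vomeronasal receptors listed 11 and 9, 2 and 10, and 6 and 7, and cytochromes P450, which oxidise drugs and steroids, 12 and 10, 6 and 8, and 8 and 15. Ribosomal protein genes listed 0 to 6 per library. Clustered protocadherins, with 57 baits, and genes of genome architecture such as Ctcf, with 10, listed 0 long loops. Pluripotency genes listed 1 and 1, 0 and 0, and 2 and 4, of which Nanog, a core pluripotency factor, had 3 distinct loops, each in 1 Ino80KD list only. Among the remodellers' own genes, Smarce1, an esBAF subunit, listed 1 and 2 in Ino80KD and none elsewhere, and Ino80d, an INO80 subunit, listed 2 and 1 in Brg1KD and none elsewhere. These are few loops, and 82.5% of all long loops were in 1 list alone.

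Other crowded places held clusters of related genes. The pair of blocks at 73 and 74 Mb of chromosome 11 joined Trpv1 and Trpv3, ion channel genes of heat sensing, to olfactory receptor genes, and held 121 loops, with 39 and 46 in Control, 26 and 36 in Brg1KD, and 39 and 49 in Ino80KD. The Trpv1 bait (chr11:73233172-73235031) listed 3 and 6, 3 and 4, and 6 and 5 of its 14 loops, values that overlap. The pair at 19 and 24 Mb of chromosome 7 joined the genes around Kcnn4 to those around Nectin2 and Ceacam20 and held 116 loops, with 25 and 28, 8 and 15, and 20 and 38. Among secretoglobin genes, which encode small secreted proteins, the Scgb1b3 bait (chr7:31374472-31376331) listed 2 and 9, 3 and 5, and 5 and 5 of 17. The neighbouring Scgb2b1 bait listed 4 and 7 in Control, 0 and 3 in Brg1KD, and 0 and 0 in Ino80KD. Scgb2b1 was thus lower in both depletions than in Control, unlike Scgb1b3. The window reached from most baits, 23, lay at chr7:102500001-102520000 beside Olfr544, and its baits belonged to olfactory receptor genes, beta-globin genes and Trim6, more than 1 Mb away. It was listed from 7 and 5 of them in Control, 3 and 7 in Brg1KD, and 8 and 5 in Ino80KD.

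Among zinc finger genes the pair of blocks at 145 and 147 Mb of chromosome 4 held 95 loops, with 53 and 38 in Control, 31 and 34 in Brg1KD, and 46 and 29 in Ino80KD. Zfp982 had the most, 21, with 13 and 12 in Control, 8 and 12 in Brg1KD, and 11 and 5 in Ino80KD. Zfp993 had 17, with 10 and 10, 8 and 9, and 11 and 7. The lowest value of both genes was in Ino80KD replicate 2. In the region of Nanog and Dppa3, at 122 and 124 Mb of chromosome 6, 69 loops gave 15 and 15, 6 and 10, and 15 and 27.

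Of the 41 loops in all 6 lists, 24 lay in the 20 fullest pairs of blocks, and several of the 10 with the highest mean scores joined members of families of similar genes. One of the 10 joined an unnamed bait at chr17:39843954-39845813 to chr17:36220001-36240000, with single scores of 30.69 and 43.24 in Control, 20.16 and 30 in Brg1KD, and 34.92 and 176.08 in Ino80KD. The value in Ino80KD replicate 2 stood far above the other 5. The loop from Olfr418 to Mptx1, 1.07 Mb away, scored 33.19 and 42.28, 36.44 and 27.54, and 34.1 and 33.0. That from Mup7 to Mup5, genes of major urinary proteins 1.78 Mb apart, scored 38.37 and 27.27, 20.0 and 32.48, and 17.17 and 10.02. Loops from Zfp993 and Zfp990 ran within the zinc finger cluster of chromosome 4, and the loop from the bait of H4c9, H2ac11 and H2bc11 ran to Abt1. Whether reads of such copies were placed on the right copy was not tested. The loop from Kcnn4, a potassium channel gene, to Nectin2, an adhesion molecule gene 4.64 Mb away, scored 27.82 and 21.47, 9.78 and 45.62, and 38.18 and 42.18. Its lowest score was in Brg1KD replicate 1 and its highest in Brg1KD replicate 2.

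Both ends of the long loops were also described by what the distance rule did not use. Long loops ended on a protein-coding gene in 55.9% of cases and those of 250 kb to 1 Mb in 56.4%. Of long loops 60.6% ended within 20 kb of a bait, against 62.1% at 250 kb to 1 Mb and 69.8% under 1 Mb. The other end lay directly beside a bait in 28.2%, against 25.2% and 27.2%. Long loops ran downstream of the bait's start site in 52.3% of 2206 loops with 1 direction (95% Wilson interval 50.2% to 54.3%), against 51.8% under 1 Mb. The median number of CG was 12 in promoters on baits with a long loop and 13 on the other baits. Among lists the medians were 22 for developmental regulators, 11 for histones and 1 for olfactory receptors on baits with a long loop, and 20, 12 and 1 for the same lists on baits with none. Of baits with a long loop 26.6% had none under 1 Mb, against 12.4% of other baits. Every bait counted has a listed loop, so a bait with no long loop had to enter by another loop. The gap is thus partly fixed by how baits were counted and is no trait of the baits with a long loop.

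The authors' deposited tables give for each contact region a mean normalized signal, a log2 fold change with its error and p-values. In the authors' deposited table for Brg1KD against Control 910 of 1380 long rows (65.9%, 95% Wilson interval 63.4% to 68.4%) were below 0, against 51.3% of all rows, with a median log2 fold change of -0.14 against -0.01. The sign is not explained in the headers and was read from loops listed only in both libraries of a group: those of Brg1KD were above 0 in 83.3% of cases and those of Control in 16.8%. By distance, 66.4% of rows at 1 to 2 Mb and 65.3% at 2 to 5 Mb were below 0 in the authors' deposited table, while at 5 to 10 Mb 43.8% of 16 rows were. Of the long rows there, 6 passed an unadjusted p of 0.05 in the authors' deposited table, all lower (0.435%, against 0.827% of all rows lower, 0.373% higher and 1.2% in either direction), and 0 passed after adjustment. At an unadjusted p of 0.01 the authors' deposited table called 0 long rows, against 0.123% of all rows lower, 0.0241% higher and 0.147% in either direction. The long rows had a median signal of 16.7 against 59.5 for all rows and a median error of 0.616 against 0.334 in the authors' deposited table, so single long rows are measured with less precision. Rows of 1 bait can share contacts and are not independent.

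In the authors' deposited table for Ino80KD 853 of 1806 long rows (47.2%, interval 44.9% to 49.5%) were below 0, against 49.6% of all rows, with a median log2 fold change of 0.03. There 14 long rows passed an unadjusted p of 0.05, 9 higher and 5 lower (0.775%, against 0.912% of all rows higher, 0.382% lower and 1.29% in either direction), and 0 after adjustment. At an unadjusted p of 0.01 there were 3 in the authors' deposited table, against 0.0288% of all rows lower, 0.104% higher and 0.132% in either direction. Both of the authors' deposited tables use the same Control libraries. Rows of histone baits had a median log2 fold change of -0.34 in the authors' deposited table for Brg1KD, with 93 of 117 below 0, and of 0.31 in that for Ino80KD, with 32 of 191 below 0. Rows of developmental regulators had medians of -0.27, with 27 of 34 below 0, and 0.31, with 13 of 74 below 0, in the authors' deposited tables. Rows of olfactory receptors had medians of -0.03 and -0.05 and zinc finger genes -0.02 and -0.06 in the authors' deposited tables. Histone and developmental rows thus lay on opposite sides of 0 in the 2 tables, as their loop counts did. These tables come from the same libraries as the lists. Rows of the same lists under 1 Mb had the same signs in the authors' deposited tables. Their medians for Brg1KD and Ino80KD were -0.29 and 0.13 for histones and -0.14 and 0.10 for developmental regulators. The opposite signs were thus not particular to long rows. The 2 tables do not hold the same rows. Pairs of developmental genes, for example, had rows for 10 pairs in the one for Brg1KD and for 17 in the one for Ino80KD. The part of this in the medians was not tested.

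Developmental genes were among the long rows of smallest p in both tables. The Nkx2-3 row to Pax2 (chr19:44660001-44780000) had a log2 fold change of -0.94 with an error of 0.457 (unadjusted p = 0.0398, adjusted p = 1.00) by the authors' deposited table on Brg1KD, and 0.35 with an error of 0.339 in that for Ino80KD. The row from Pax2 back to Nkx2-3 had -1.14 with an error of 0.605 in the authors' deposited table for Brg1KD (unadjusted p = 0.0602). The authors' deposited table for Brg1KD also gave -0.71 with an error of 0.356 for the bait of Gm52046 and C130071C03Rik (unadjusted p = 0.0448). For Brg1KD the authors' deposited table held -1.52 with an error of 0.767 for Esp34, a pheromone peptide gene, to the region of Olfr96 and H2-M3 (unadjusted p = 0.0469). A neighbouring Esp34 row was also below 0 in the authors' deposited table for Ino80KD, at -1.38 with an error of 0.619 (unadjusted p = 0.0262). For Ino80KD the authors' deposited table gave 1.33 with an error of 0.509 for Nkx2-3 to the region of Tlx1 and Lbx1 (unadjusted p = 0.00912), 1.79 with an error of 0.693 for Lhx2 to Lmx1b (unadjusted p = 0.00981) and 0.85 with an error of 0.367 for Nkx2-1, a lung and forebrain homeobox gene, to Foxa1 (unadjusted p = 0.0211). A histone row, from H2ac6 and H2bc4 to the region at chr13:21834483-21980073, had 1.52 with an error of 0.689 in the authors' deposited table for Ino80KD. The row with the smallest p among all long rows for Ino80KD, from Gm5426 to chr10:97200001-97420000, had -0.89 with an error of 0.335 (unadjusted p = 0.00826) in the authors' deposited table. Above 0, the row of smallest p for Brg1KD ran from Tnfsf9, a cytokine gene, to the region of Pdzph1, with 1.20 and an error of 0.743 (unadjusted p = 0.106) in the authors' deposited table.

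**Figure D5:**
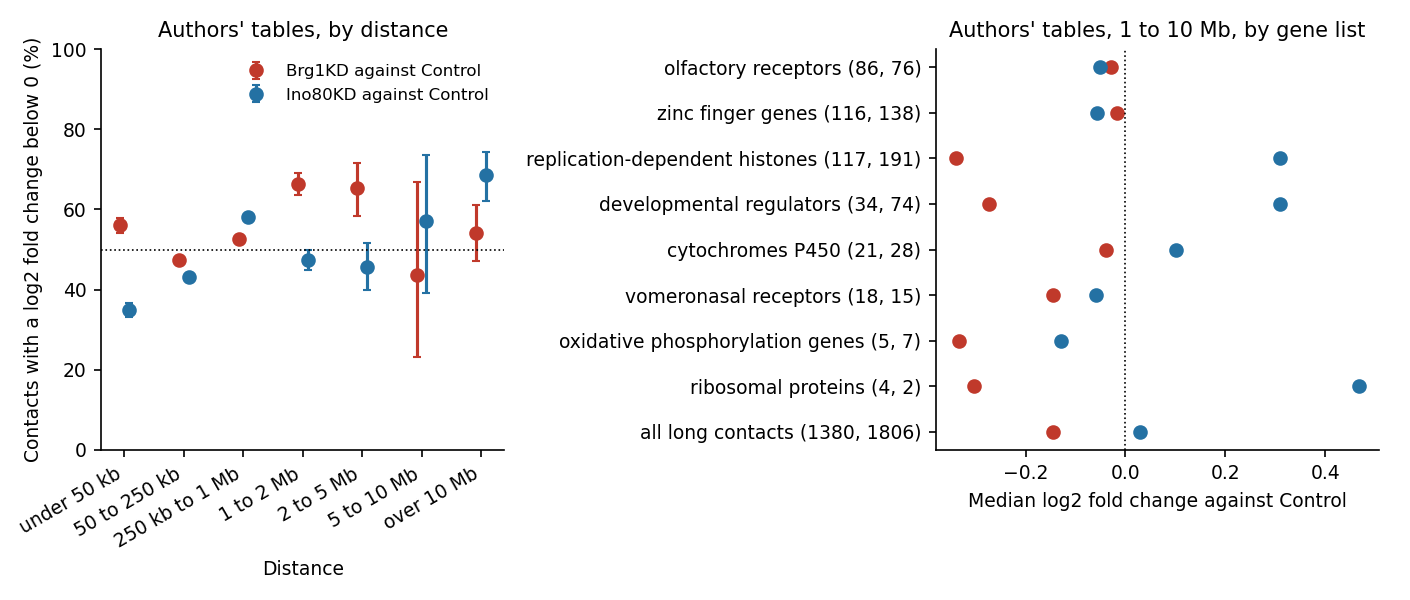
The share of rows with a log2 fold change below 0 by distance (left, percent with 95% Wilson intervals) and the median log2 fold change of long rows by gene list (right, rows for Brg1KD and Ino80KD in parentheses), from the authors' deposited tables. For Brg1KD 66.4% of rows at 1 to 2 Mb lie below 0, and histone and developmental medians lie on opposite sides of 0 for the 2 depletions.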

How the data were processed

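Promoter-capture Micro-C was measured in 6 libraries, 2 per group. The authors deposited for each library a list of loops with an interaction score, none below 5. The loop caller was not given in the sources used here. The submitters' processing notes name the build mm10 and the tool bedtools. Per the file headers, the authors' deposited table for each depletion gives each contact region a normalized mean signal, a log2 fold change, the error and a statistic (a score) of that change, and raw and adjusted p-values. Counts per library and sequencing depth are unknown, so no count test was made, and the authors' values are described as deposited.

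Loops were joined by identical ends. Baits were named from RefSeq protein-coding genes (GRCm38.p6), preferring those that end on the bait over those ending up to 2 kb away and those that span it. The gene table used for naming gives no strand, so a named gene's promoter and far end are not told apart. Promoter sequences, start sites and loop directions come from the RefSeq promoter table, which gives strand. Library values were compared by exact two-sided permutation with Benjamini-Hochberg adjustment over 9 library tests and 24 list tests. Lists with fewer than 5 long loops in every library have counts only. Python 3.11.15, pandas 2.3.3 and scipy 1.17.1 were used, and scripts were tested on simulated data.

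The text names the 10 loops in most libraries, the 8 baits with most long loops, the 5 other ends reached from most baits, the 4 rows each side of 0 with the smallest p in each table (neighbours within 50 kb given once), the 3 loops of highest mean score listed in 1 group alone, up to 4 genes per list with most long loops, and the depleted genes; not all of these are printed, and 1 gene and its pair are not reported here. The members, lists and rules were chosen with earlier results of these data known. The pairs of developmental genes and their list were chosen after the loops were seen. Alternatives were a higher score minimum, batch 1 alone, the replicate block, each replicate left out, and other settings.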

Additional observations from a re-analysis of the deposited data

Results flagged for a closer look

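The chromosome 2 bait left out of the counts of long loops had 1 loop of 1 to 10 Mb in Brg1KD replicate 2 and 0 in each of the other 5 libraries. It was picked out because it lies in data that no main comparison used, and it was kept only in 1 of the alternative settings.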

How the results depend on the processing

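The direction of every ratio for developmental regulators held under all 24 alternatives. So did that of developmental genes near both ends, whose 18 alternatives were chosen after the data were seen. Most of these alternatives could not turn a direction. The groups did not overlap in either measure, which fixes the sign without a replicate, in batch 1 alone and with the replicate block. Only gene ends on the bait and count of baits could turn developmental regulators, and only the higher score minimum the gene pairs. With each replicate left out in turn, the log2 ratio for developmental regulators was -1.49 to -0.71 for Brg1KD against Control and 0.60 to 1.24 for Ino80KD against Control, and for long loops per library it was -1.33 to -0.49 for Brg1KD against Control. The labels give the groups the same replicate numbers, but these share a batch only for replicate 1 of all groups and replicate 2 of the depletions. With the replicate block the log2 ratio of long loops was -0.91 for Brg1KD against Control, and the block changed no direction.

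At a score of at least 7, log2 ratios of Ino80KD against Control turned to 0.0561 for long loops and 0.10 per 1000, and the median distance of Brg1KD minus Control turned to 0.0176 Mb. The share of long loops in 2 or more lists was 19.6% within 5 kb and 22.1% within 10 kb. In the authors' deposited table for Brg1KD, 80.7% of the 57 long rows above the median signal of all rows were below 0, and rows past p numbered 0 at p under 0.01, 0 above the median signal and 0 at 2 to 10 Mb. In the authors' deposited table for Ino80KD the share below 0 was 53.2% of 77 rows above the median signal and 51.6% with 1 value per bait, and rows past p numbered 3, 0 and 2.

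The other turns of direction were log2 ratios of gene lists. In batch 1 alone, Ino80KD against Control gave 0.0360 for olfactory receptors, -0.52 for cytochromes P450, 0.0625 for ribosomal proteins and 0.0625 for oxidative phosphorylation genes, and Ino80KD against Brg1KD gave 0.37 for vomeronasal receptors. With gene ends on the bait only, zinc finger genes gave -0.18 for Brg1KD against Control and 0.00312 for Ino80KD against Brg1KD, and ribosomal proteins 0.13 for Ino80KD against Control. By count of baits, zinc finger genes gave 0.0234 for Ino80KD against Control and histones 0.18 for Brg1KD against Control. With each replicate left out, Ino80KD against Control ran from -0.12 to 0.0491 for long loops per 1000, -0.25 to 0.00956 for olfactory receptors, -0.46 to 0.0115 for zinc finger genes, -0.36 to 0.52 for P450, -1.19 to 1.04 for ribosomal proteins and -1.24 to 0.11 for oxidative phosphorylation. Brg1KD against Control ran from -1.001 to 0.48 for vomeronasal receptors, -0.0359 to 0.23 for zinc finger genes and -0.49 to 0.21 for histones. Ino80KD against Brg1KD ran from -1.01 to 0.47 for vomeronasal receptors, -0.61 to 0.27 for P450 and -0.33 to 1.02 for oxidative phosphorylation. The cause of these turns was not tested. Depth is unknown, and a loop outside a list may still exist below the minimum score.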
